A study of Mus musculus with 2 samples.

Results

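The genes of the DNA replication and S phase machinery were followed between blood cells of mouse fetal liver with a high and with a low ratio of the SoNar sensor, a genetically encoded fluorescent reporter of the cytosolic NADH/NAD+ state. The set holds 48 genes of 20659 named on the array. It was chosen by name, for the textbook roles of the gene products in origin licensing, helicase assembly, DNA synthesis, nucleotide supply and chromatin assembly, and every non-control probe of these genes was compared. Earlier results of these data were known when the set was chosen. The array carried 55 probes for the 48 genes, and 47 of these genes had a probe well above background on both arrays.

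Livers were taken at stage E13.5 and cells were sorted by the sensor's fluorescence ratio F405/F488. Each population gave total RNA for 1 single-colour (Cy3) Agilent array, so there was 1 array per group. The SoNar-high sample carries the strain label C57BL/6 and the SoNar-low sample C57BL, and no treatment or genotype is labelled beyond the sensor sort. The marks that told blood cells from other liver cells, and the number of embryos pooled, are not given in the sources used here. With 1 array per group there is no replicate spread, no test was possible and no p-value is given.

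Replication starts when the origin recognition complex, with Cdc6 and Cdt1, loads the MCM helicase on DNA in G1. In S phase the kinase Cdc7 with its partner Dbf4, the GINS complex and Cdc45 switch the helicase on. Polymerases alpha, delta and epsilon then copy the strands, held to DNA by the PCNA ring that the RFC clamp loader opens and closes. Much of this machinery is transcribed in late G1 and S phase under E2F factors. In fetal liver at this stage, erythroid precursors, stem and progenitor cells and lymphoid progenitors all contain dividing cells, and late erythroblasts leave the cell cycle as they mature.

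The letters TTTNNCGC are a written form of sites of E2F factors. They were searched for on both strands of RefSeq promoter windows of assembly GRCm38.p6, from 250 bases before to 50 bases after each start. Of the members, 40 were in the promoter table, and Gmnn, Mcm4, Gins1, Gins2, Gins4, Rfc2, Prim2 and Pole were not. The letters occurred in windows of 15 of these 40 genes (37.5%), against 5.93% of the 27025 genes with a window of the same length. A second motif, TTTGAA, is the core of the cell cycle homology region of mitotic promoters and overlaps the first in its TTT at most. It was present in 7 of the 40 (17.5%) against 20.2% of all genes. In a list of mitotic genes the order was turned, with TTTGAA in 21 of 30 genes (70.0%) and TTTNNCGC in 2 (6.67%). A match is a description of letters and not evidence of a bound site, and the lack of a match is not evidence against one.

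For 8 members a TTTNNCGC match lay wholly before the start, and those with the 3 lowest and the 3 highest expression differences are shown to place the letters next to genes at both ends of that range. Each runs 5′ to 3′ on the gene's strand, with every match in capitals. GCGNNAAA is the same motif read on the other strand, and in Mcm5 the capitals hold 2 matches that overlap, 1 on each strand.
Cdc6 (chr11:98907987-98908046, + strand): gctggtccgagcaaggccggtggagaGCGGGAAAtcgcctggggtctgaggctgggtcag
Pola1 (chrX:93632260-93632319, - strand): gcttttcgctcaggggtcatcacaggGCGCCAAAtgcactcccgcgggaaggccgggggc
Rfc3 (chr5:151651209-151651244, - strand): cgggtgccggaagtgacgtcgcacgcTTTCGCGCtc
Mcm5 (chr8:75109334-75109393, + strand): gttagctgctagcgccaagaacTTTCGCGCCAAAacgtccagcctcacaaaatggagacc
Mcm6 (chr1:128359719-128359778, - strand): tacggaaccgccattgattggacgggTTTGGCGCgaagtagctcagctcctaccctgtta
Mcm7 (chr5:138172015-138172074, - strand): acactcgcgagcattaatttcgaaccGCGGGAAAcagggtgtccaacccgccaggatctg

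On the arrays, most replication genes had a somewhat lower scaled signal in SoNar-high cells. Each difference below is the log2 signal in SoNar-high minus that in SoNar-low, with each array first divided by its own 75th percentile (186.5 units of processed signal for SoNar-high and 222.2 for SoNar-low). Of 47 measured members, 35 lay below 0, where 55.8% of all 10223 measured genes did, and the median of the members was -0.32 against -0.08 for all genes. The scanner's own error model gave the difference of a single member an error of 0.20 to 0.30, and 213 other probes printed 10 times had a median SD of 0.15 for the difference of a spot pair. No member was printed more than once. By this measure 10 of the 47 members lay within 1 such SD of 0, as did 2009 of all 10223 measured genes.

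At the 2-fold size used throughout, 2 of 47 members were lower and none was higher, where 4.44% of all genes were at least 2-fold lower and 5.28% at least 2-fold higher. The 2 were Rfc1 and Slbp, and the share of members past 2-fold is near that of all genes. At 1.5-fold, 14 members were lower against 17.7% of all genes, and 1 member, Pola2, was higher against 13.8%. The count of 14 depends on the scaling. It was 8 with the 75th percentile of detected spots (10.9% of all genes), 8 after loess (12.8%), 8 in the deposited table (15.5%) and 9 after quantile normalization (15.7%). It was 12 after normexp (13.1%) and stayed 14 with the median of detected spots (14.9%). More than 2 scanner errors lower were 19 members (25.7% of all genes) and more than 2 scanner errors higher were 2, Mcm2 and Pola2 (17.6% of all genes).

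The level of 0 itself depends on the scaling. The median of all genes moved upward under all 6 other scalings, by 0.03 to 0.15, so a positive sign was easier to keep than a negative one. With the 75th percentile taken over spots detected on both arrays, the median of all genes moved by 0.15 to 0.07 and that of the members to -0.16, with 31 of 47 members below 0 against 45.2% of all genes. With a trend on brightness removed by loess, the median of all genes moved by 0.10, the members had a median of -0.19, and 31 lay below 0 against 48.5%. The distance between the 2 medians moved less, though scalings that shift every gene equally, such as those to detected spots, could not move it. It was -0.24 in the main setting and between -0.31 and -0.18 under the 6 other scalings and background corrections, with 31 to 35 of 47 members below the median of all genes. Across these settings 30 members were below 0 in every one and 8 above 0 in every one, and the other 9 took both signs. The share of all genes with the same sign in every setting was not counted, so these counts do not set the members apart. At 1.5-fold higher there were 3 members under the detected-spot scaling, where 19.9% of all genes were. In bulk RNA, fewer cells of a kind and less RNA per cell cannot be told apart.

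**Figure D1:**
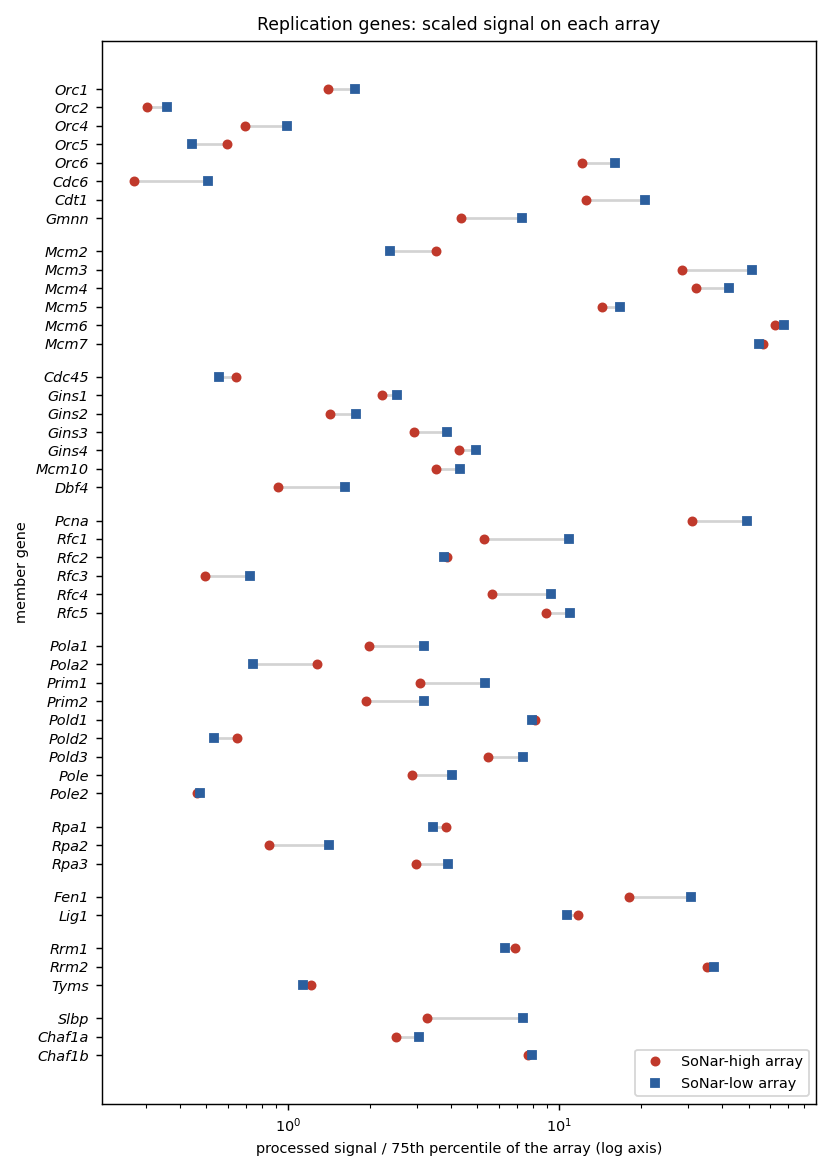
Processed signal of each member divided by the array's own 75th percentile (log axis), on the SoNar-high array (circles) and the SoNar-low array (squares), 1 measured probe per gene and 1 array per group. In 35 of 47 genes the SoNar-high value lies to the left of the SoNar-low value, and levels of different genes come from different probes and are not comparable.

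**Figure D2:**
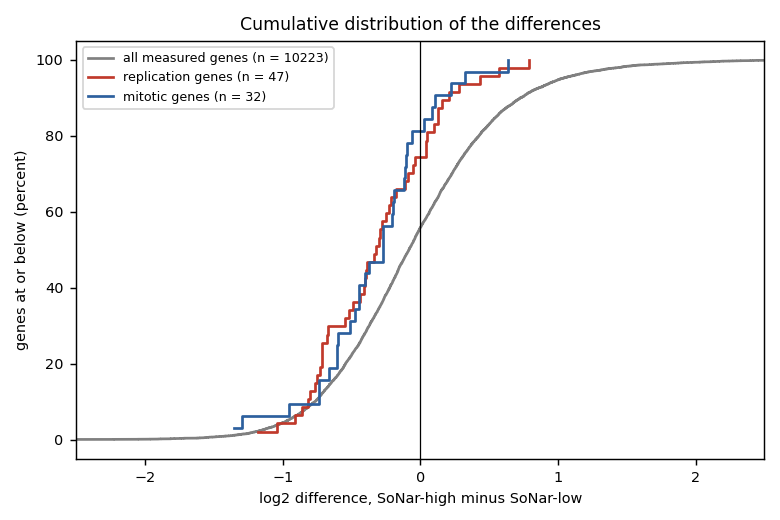
Cumulative share (percent) of genes at or below each log2 difference for all 10223 measured genes, the 47 replication genes and 32 mitotic genes. Both lists lie above the curve of all genes around 0 because fewer of their genes have positive differences, and the 3 curves meet near a 2-fold decrease.

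Origin recognition and licensing genes were mostly lower in the SoNar-high array, with 7 of 8 below 0 and a median of -0.46 (-0.49 to -0.31 over the 6 other scalings). Cdt1, the loader that brings MCM to the origin, had a processed signal of 2346 in SoNar-high and 4596 in SoNar-low cells, a difference of -0.72. Its inhibitor geminin, Gmnn, which blocks a second round of licensing in S and G2, had signals of 812 and 1628 and a difference of -0.75. In this setting the 2 differences lay within the scanner error of either, whereas after normexp they were -0.94 for Cdt1 and -0.51 for Gmnn. Both stayed below 0 under all 6 other scalings, Cdt1 between -0.94 and -0.49 and Gmnn between -0.69 and -0.51.

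Cdc6, the ATPase that loads MCM together with the origin recognition complex, was a dim gene with 2 measured probes that disagreed. Its brighter probe gave signals of 50.5 and 112.8 and a difference of -0.91, and its other probe gave 52.4 and 56.6 and a difference of 0.14, which itself turned to -0.12 under quantile normalization and in the deposited table. The first value passed 2-fold after loess (-1.02) and after quantile normalization (-1.10) and was -0.40 after normexp background correction. The direction for this gene depends on the probe.

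Within the origin recognition complex itself, which marks origins through G1, 4 of the 5 subunits among the members were below 0 and none passed 1.5-fold. Orc3, a subunit outside the member set, had signals of 814 and 1346 and a difference of -0.47. Orc1, the subunit whose level rises toward S phase, had signals of 261 and 392.2 and a difference of -0.34. Orc6 had 2263 and 3584, a difference of -0.41 (-0.80 after normexp and -0.18 after loess). Orc4 had 129 and 221 (-0.52; its other probe was not well above background on either array), and Orc2 had 56.1 and 79.5 (-0.25, less than its scanner error of 0.30). Orc5 went the other way, with 111.1 and 98.2 and a difference of 0.43, and stayed positive under all 6 other scalings (0.31 to 0.59).

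The 6 subunits of the MCM helicase ring, which act as a single complex with 1 copy of each, had differences that spread from -0.86 to 0.57. Their median was -0.17, which turned to 0.01 under one of the other scalings. Mcm3 had signals of 5305 and 11451 and a difference of -0.86, the lowest of the ring. Mcm2 had 657 in SoNar-high and 527 in SoNar-low cells, a difference of 0.57, and is the only subunit whose signal was higher in SoNar-high before scaling. The distance between Mcm3 and Mcm2, 1.43, is several times the scanner error of either (0.20 and 0.21), and their signs held under all 6 other scalings. Each gene was read from 1 probe, and the scanner error does not cover differences between probes. Probes of the same gene had a median range of 0.41 on this array, and those of Slbp differed by 1.21.

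The other 4 subunits lay between these. Mcm4 (5981 and 9436) had -0.41 and was negative under all scalings. Mcm5 (2681 and 3738) had -0.23, Mcm6 (11630 and 14995) had -0.11 and Mcm7 (10530 and 12148) had 0.05. These 3 values were close to the scanner error and changed sign under at least 1 of the other scalings, so no direction is given for them.

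Of 7 measured helicase activation genes, 6 were below 0, with a median of -0.30 (-0.36 to -0.10 in the other scalings), and none passed 2-fold. The 4 GINS subunits, which tie the MCM ring to polymerase epsilon, had the smallest span, 0.22, of the 5 complexes with at least 4 measured subunits among the members. Gins3 (545 and 855) had -0.40, Gins2 (266 and 396) had -0.32, Gins4 (795 and 1098) had -0.21 and Gins1 (416 and 560) had -0.18. All 4 were below 0 in every scaling, though Gins1 and Gins4 reached 0.00 after loess. Cdc45, the third part of the active helicase, had 119.7 and 123.5. Its difference of 0.21, less than its scanner error of 0.24, was positive in every scaling (0.04 to 0.36).

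Mcm10, which acts after the helicase is assembled, had signals of 653 and 959 and a difference of -0.30. Dbf4, the activating subunit of the firing kinase, had 171.8 and 361 and a difference of -0.82, which lay between -0.79 and -0.66 in the other scalings. Its partner Cdc7 was the member not measured on both arrays. A probe of Cdc7 passed the background flag in SoNar-high cells only, with signals of 35.5 and 27.2 and a scanner error of 0.52 for the difference, so no direction is given for it. Its second probe was not well above background on either array.

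The clamp and its loader had, in the main setting, the lowest median of the role groups, -0.61 (-0.55 to -0.46 over the other scalings), with 5 of 6 genes below 0. Pcna, the ring that holds polymerases on DNA, had signals of 5769 and 11000.2 and a difference of -0.68. Rfc1, the large subunit of the clamp loader, had 985 and 2419 and was 2.06-fold lower, a difference of -1.04. It stayed past 2-fold after normexp (-1.02) and was between -0.98 and -0.83 in the others. Among all measured genes, 3.8% had a difference as low or lower.

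The small subunits of the loader were less alike. Rfc4 had 2 measured probes in close accord, at -0.71 (1059 and 2067) and -0.62 (327 and 598). Rfc3 (92.2 and 160.7) had -0.55 and Rfc5 (1675 and 2442) had -0.29. Rfc2 (718 and 833) had 0.04, a value within the scanner error that was positive in every scaling, so the 4 small subunits spanned 0.75.

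**Figure D3:**
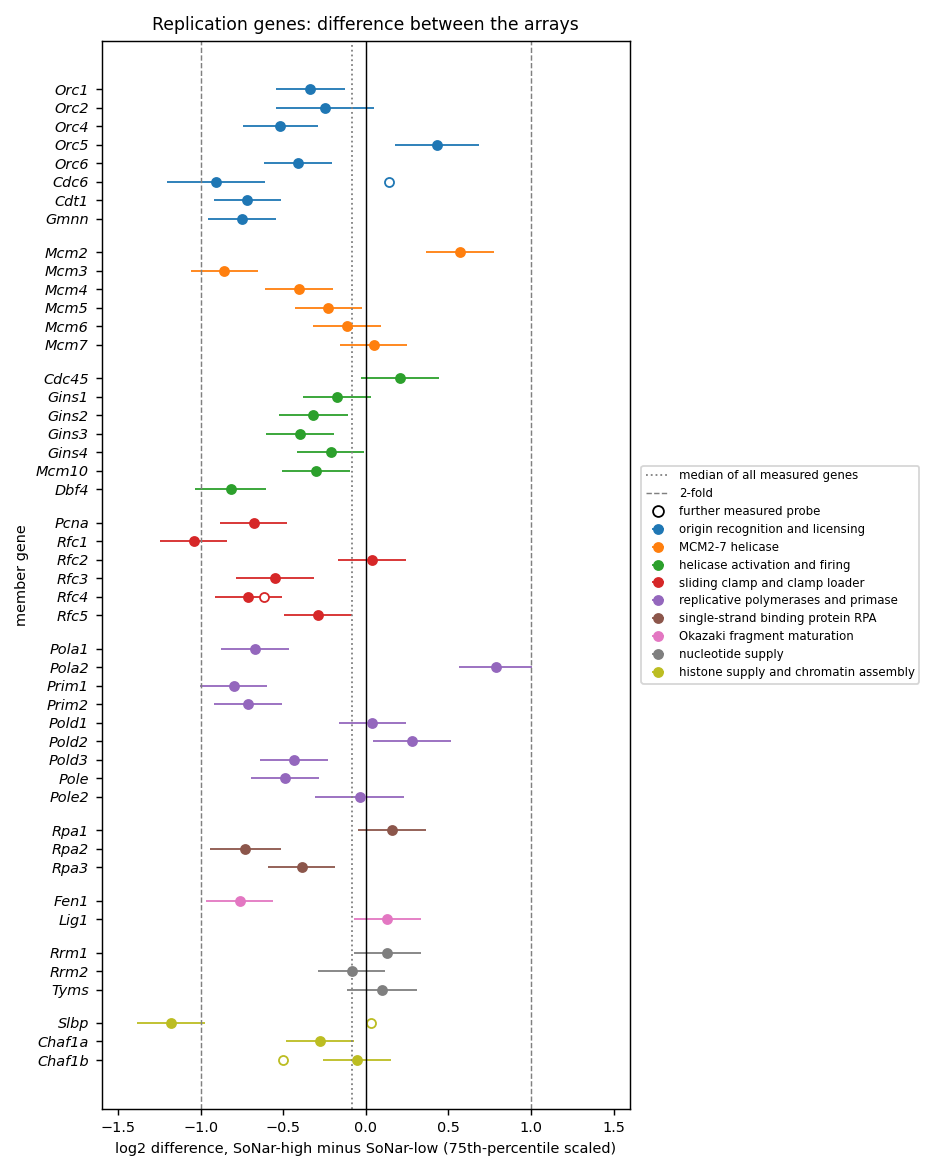
Log2 difference of each member, SoNar-high minus SoNar-low, coloured by role, with bars of 1 scanner error to each side and open circles for further measured probes of the same gene. The dotted line is the median of all measured genes (-0.08) and the dashed lines mark 2-fold, which Rfc1 and 1 of 2 probes of Slbp pass.

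Of the 9 genes of replicative polymerases and primase, 6 were below 0, with a median of -0.44 (-0.45 to -0.22). The polymerase alpha-primase complex starts each strand with a short primer. Its primase subunits Prim1 (572 and 1188) and Prim2 (361 and 705) had -0.80 and -0.71, and its catalytic subunit Pola1 (371 and 705) had -0.67. These 3 values lay within 1 scanner error of each other and at or below -0.49 in every scaling.

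Pola2, the accessory B subunit of the same complex, had signals of 238 in SoNar-high and 164 in SoNar-low cells. Its difference of 0.79 (1.73-fold) was the highest of all members, was positive in every scaling (0.50 to 0.94) and lay 1.59 above that of Prim1. It rests on 1 probe, and 91.3% of all genes had a difference as low or lower.

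Polymerase delta, which makes most of the lagging strand, gave values on both sides of 0. Pold3 (1016 and 1638) had -0.44, while Pold1, the catalytic subunit (1523 and 1766), had 0.04 and Pold2 (120.7 and 118.4) had 0.28. Pold1 turned negative after normexp (-0.15). Of polymerase epsilon, the leading strand enzyme, the catalytic subunit Pole had 537 and 898 (-0.49), and its second probe was not well above background on either array. Pole2 had 85.9 and 105.1 and a difference of -0.04, which took both signs.

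RPA, the trimer that coats single-stranded DNA at the fork, had 2 of 3 subunits below 0, and none passed 2-fold. Rpa2 (158.7 and 314) had -0.73 and was between -0.78 and -0.58 in the other scalings. Among all measured genes, 11.4% had a difference as low or lower than that of Rpa2. Rpa3 (555 and 866) had -0.39, and Rpa1 (715 and 763) had 0.16, which turned to -0.05 after normexp. Among the enzymes that finish Okazaki fragments, the flap nuclease Fen1 had 3379 and 6839 and a difference of -0.76. The ligase Lig1, which seals the nick that Fen1 leaves, had 2182 and 2377. Its difference of 0.13 was positive in every scaling but within the 0.15 spot spread. Fen1 and Lig1 differed by 0.89.

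Nucleotide supply stood near 0. The ribonucleotide reductase subunits Rrm1 (1286 and 1400.3) and Rrm2 (6543 and 8277) had 0.13 and -0.09, and thymidylate synthase, Tyms (228 and 253), had 0.10. All 3 lay within the 0.15 spot spread. Rrm1 was positive in every scaling (0.19 to 0.34 in the others), whereas Rrm2 ranged from -0.43 after normexp to 0.14 and Tyms took both signs. The median of the 3 was 0.10, on the other side of 0 from the remaining role groups in the main setting.

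Among histone supply and chromatin assembly genes, Slbp, the protein that binds the stem-loop of replication-dependent histone mRNA, had the lowest difference of all members. One probe gave 608 and 1641, a difference of -1.18 (2.27-fold lower) that was between -1.21 and -0.97 in the other scalings. A second probe of similar brightness gave 715 and 835 and a difference of 0.03, between 0.09 and 0.24 in the other scalings. The 2 probes are named by the same transcript and differ by 1.21, so the position of Slbp at the end of the list belongs to 1 probe. With the median over a gene's probes, Rfc1 was the single member past 2-fold.

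The large subunits of the histone chaperone CAF-1, which deposits histones behind the fork, had smaller differences. Chaf1a (469 and 678) had -0.28. Chaf1b had -0.05 with its brighter probe (1432 and 1771) and -0.50 with its other (464 and 781), and only the first of these turned positive under other scalings. Of the 4 members with 2 measured probes, Rfc4 gave the same value within error and Cdc6, Slbp and Chaf1b did not. Over the array, the median range between probes of the same gene was 0.41, among 2021 such genes.

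Members with and without TTTNNCGC in their promoter window did not separate. The 15 measured members with the letters had a median of -0.34, with 11 below 0, and the 24 without had a median of -0.30, with 17 below 0. Of the 6 shown above, Cdc6, Pola1 and Rfc3 (-0.91, -0.67 and -0.55) carry the letters, as do Mcm5, Mcm6 and Mcm7 (-0.23, -0.11 and 0.05). No match was found in these windows of Rfc1, Slbp, Mcm2 and Pola2, which lie at the low and the high end of the members.

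Genes around the members were read from lists chosen by role, with earlier results of these data known. Checkpoint and repair genes had 19 of 22 below 0 and a median of -0.50 (-0.44 to -0.35 in the other scalings). The checkpoint kinase Atr (437 and 956) had -0.88, while Ung, which removes uracil from DNA, had -0.28. Origin firing and fork factors had 15 of 21 below 0 and a median of -0.38 (-0.32 to -0.17). Rif1, a regulator of origin timing (108.2 and 274), had -1.09, Rnaseh2b -0.85 and the fork protein Wdhd1 0.86, with Rnaseh2c at 0.26.

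Other nucleotide synthesis enzymes, in contrast to the 3 members of that group, had 19 of 23 below 0 and a median of -0.35 (-0.28 to -0.13). Nme2, a nucleoside diphosphate kinase (7915 and 18977), had -1.01, the dUTPase Dut -0.89 and the CTP synthase Ctps -0.73. Nme2 has a close copy in Nme1, and a probe can share targets between them. Histone chaperones and chromatin factors had 9 of 14 below 0 and a median of -0.33 (-0.30 to -0.14), with the helicase Hells at -1.25 (-0.80 after normexp), the histone chaperone Nasp at -0.75, the acetyltransferase Hat1 at -0.70 and Rbbp7 at -0.66.

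A list of further subunits of the members' complexes and of genes related to them did not show a shift, with 3 of 6 below 0. Its median of -0.05 took both signs under other scalings. Mcm8 and Mcmbp, both in this list, are not among the 6 subunits of the MCM ring. Mcm8 had -0.60, Orc3 -0.47, Pole4 0.24 and Mcmbp 0.04. Regulators of the programme were also spread over both sides. E2F and RB family genes had 6 of 17 below 0 and a median of 0.10 (0.04 to 0.26). E2f2, an activator E2F (7220 and 5946), had 0.53 and was positive in every scaling, whereas the repressor E2f7 (226 and 454) had -0.75, E2f3 -0.69 and Lin9, of the DREAM and MuvB complexes, -0.84. S phase cyclins and kinases had 6 of 12 below 0. Dtl, which targets Cdt1 for destruction at PCNA, had -1.04 (-0.73 after normexp), Cdk1 -0.83, Ddb1 -0.36 and the CDK inhibitor Cdkn1c 0.96.

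Mitotic genes, which act after replication is complete, had 26 of 32 below 0 and a median of -0.27 (-0.31 to -0.12), beside 35 of 47 and -0.32 for the members. None was at least 2-fold higher. Ndc80 (171.0 and 522) and Spc24 (163.8 and 479), both of the NDC80 kinetochore complex, were at least 2-fold lower, at -1.36 and -1.29. Nuf2 and Spc25, of the same complex, were measured and did not pass 2-fold. Of all genes, 4.44% were at least 2-fold lower and 5.28% at least 2-fold higher. Bub1 had -0.95 and Birc5 -0.27.

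**Figure D4:**
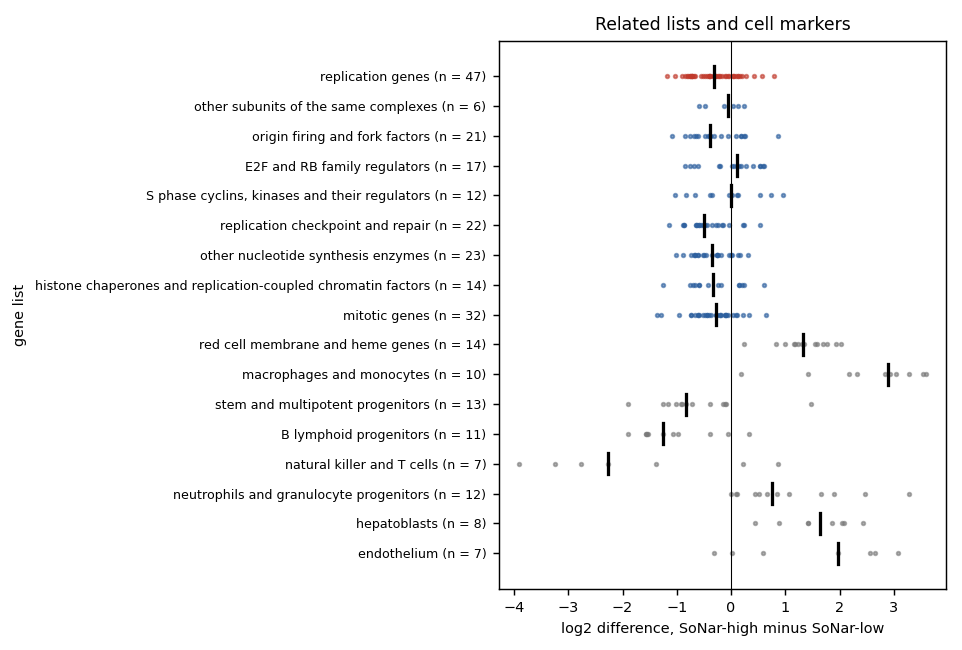
Log2 differences of single genes (dots) and list medians (black bars) for the replication genes, lists of related genes and markers of cell types, with the number of measured genes in brackets. The replication genes have a median of -0.32, beside 2.88 for macrophage markers and -2.26 for natural killer and T cell markers.

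Markers of cell types differed between the same arrays. In the SoNar-high array 11 of 14 measured red cell membrane and heme genes were at least 2-fold higher (median 1.32, summed scaled level 152.9 against 66.3 in SoNar-low), with Dmtn at 2.02. Sptb was not well above background on either array. Macrophage markers were higher as well, with 9 of 10 at least 2-fold higher, a median of 2.88 and a summed level of 118.5 against 41.0, and Marco at 3.59. The brightest of them, Csf1r (5979 and 6309), had 0.18. Hepatoblast (6 of 8, 86.7 against 30.2), endothelial (4 of 7, 34.6 against 22.2) and neutrophil markers (5 of 12, 1176 against 776) were also at least 2-fold higher in those numbers. The brightest endothelial marker, Egfl7 (2604 and 3843), had -0.31 and was the 1 of 7 below 0. The brightest neutrophil marker, S100a9 (43917 and 38631), had 0.44, and the brightest hepatoblast marker, Afp, had 1.42. Cd163 and Apoa1 were not well above background on either array.

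In the other direction, B lymphoid progenitor genes had 7 of 11 at least 2-fold lower in SoNar-high, a median of -1.25 and a summed level of 28.1 against 79.4, with Vpreb1 at -1.90. Stem and multipotent progenitor genes had 4 of 13 past 2-fold on the low side and 1 on the high side, a median of -0.84 and a summed level of 83.5 against 129.0, with Angpt1 at -1.90 and Myb (3608 and 8056) at -0.91. Natural killer and T cell genes had 5 of 7 at least 2-fold lower and a summed level of 10.98 against 35.5, while the other 2 were above 0, with Nkg7 at 0.22 and the highest at 0.87. The part of these cell types in the differences of the replication genes was not tested. The summed scaled level of the 47 members was 420.7 in SoNar-high and 534.3 in SoNar-low. The MCM2-7 genes alone made up 197.2 and 235.3 of these sums, and all measured genes summed to 68490 and 72154.

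**Figure D5:**
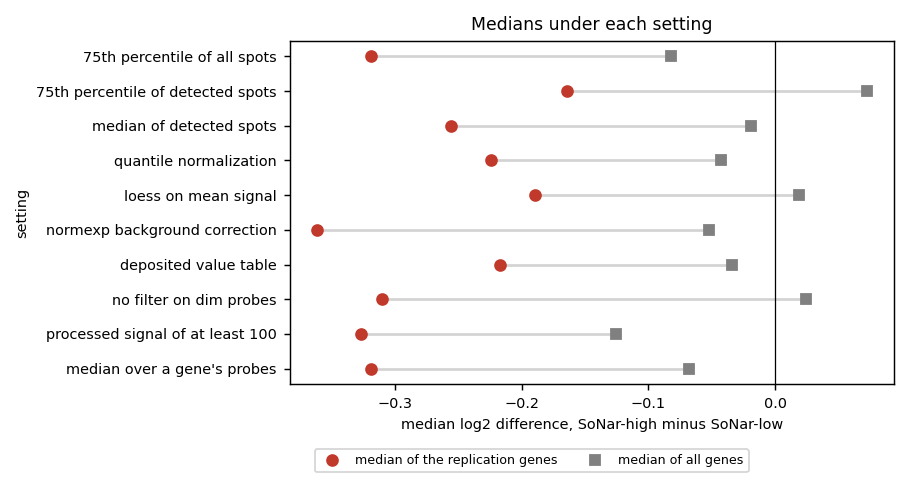
Median log2 difference of the replication genes (circles) and of all genes (squares) under each way of processing the arrays. The median of the members is negative in all 10 settings, from -0.36 to -0.16, and lies below that of all genes in each.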

How the data were processed

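Per the labels' protocols, Cy3-labelled RNA was put on single-colour arrays, 1 per group, and each array's group comes from its sample's source name. Spot intensities (processed signals with their errors, median signals and local background) were deposited by the authors as Feature Extraction output (11.0.1.1 per the file headers, 9.1 per the submitters' processing notes), with background already subtracted from the processed signal. The log2 value table deposited by the authors, whose normalization and centring stay unknown, served as an alternative. Both columns have a median of 4.80, and over 15975 measured probes the difference between its columns correlated with that of the scanner signals at 0.966, which gives its direction.

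Control spots and outlier spots were left out, log2 processed signals were set relative to the 75th percentile of the array's 43020 non-control spots, and spots of a probe averaged. Probes (39429) were named through accessions in a RefSeq table of GRCm38.p6 (27234 with 1 gene, 12195 without), used for names because the array design refers to another build. A probe was measured if well above background and unsaturated on both arrays, and a gene was read from the brightest such probe. No spot was saturated, and 49.4% of spots (SoNar-high) and 42.4% (SoNar-low) passed the background flag. The number of arrays limits the precision.

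The 6 other scalings were the 75th percentile and the median of spots detected on both arrays, quantile normalization, loess (span 0.3), normexp (limma 3.58.1, offset 50, on median and background signals) and the deposited table. Further settings were no filter on dim probes, a minimum signal of 100, the median over probes, and thresholds of 1.5-fold and 3-fold. The counting step was checked on made-up arrays. All members are named; of other lists, the 3 genes farthest from 0 and the brightest, with some marker genes left out for length and some genes not reported here. Members and lists were chosen with earlier results of these data known.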

Additional observations from a re-analysis of the deposited data

How the results depend on the processing

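The count of members below 0, 35 of 47 in the main setting, was 31 to 38 in the 9 alternative settings. The count below the median of all genes, 33 in the main setting, was 28 to 35. The 28 were of the 42 members left by a minimum signal of 100, and 48 members were counted without a filter on dim probes. The count of members at least 2-fold lower, 2 in the main setting, was 1 with the 75th percentile of detected spots (Slbp), with the median of detected spots (Slbp), after loess (Cdc6) and with the median over a gene's probes (Rfc1). It was 2 under quantile normalization and in the deposited table, there Cdc6 and Slbp. It was 14 at a 1.5-fold threshold, which fell to 8 with the 75th percentile of detected spots, after loess and in the deposited table and to 9 after quantile normalization. The 1.5-fold count was 12 after normexp and stayed 14 with the median of detected spots. At a 3-fold threshold the count of lower members was 0, and the count of members at least 2-fold higher, 0, was 1 at 1.5-fold. The median of the members, -0.32, was -0.16 with the 75th percentile of detected spots. The causes were not tested. No paired analysis was possible because each group has 1 array, and for the same reason no replicate could be left out. Background limits the dim members, such as Cdc6 and Orc2, whose scanner errors of 0.30 are the largest, and Cdc7.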
